A study of Homo sapiens with 20 samples.

Results

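HIF1A binding was described at 49 genes of the mTORC1 and PI3K pathways, out of 20163 protein-coding genes of the annotation. A member counted as bound in a peak list when the centre of a peak lay inside the gene or within 10 kb of either end. All 49 gene symbols were found in GENCODE release 44 as mapped to GRCh37. The peaks come from HIF1A ChIP-seq, which sequences DNA recovered with an antibody against the oxygen-regulated subunit of HIF1. The 4 human cancer cell lines were HCT116 and RKO (colon) and A549 and H460 (lung), kept for 24 h in normoxia or at 1% O2. Each line and condition had 2 ChIP libraries, which had been merged before peak calling, and each line had 1 input library of genomic DNA, labelled normoxia. The results are therefore 8 peak lists, with no replicate error for any value. All lines are established tumour lines grown in culture, so the lists describe these lines and not the tissues.

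mTORC1 is a protein kinase complex on the lysosome that drives protein synthesis and growth when growth factors, amino acids and energy are at hand. Growth factor signals run through PI3K and AKT, which inhibit the TSC complex and so leave the small GTPase RHEB free to switch mTORC1 on. Amino acid signals run through the Rag GTPases, which Ragulator (the LAMTOR proteins) holds on the lysosome and which GATOR1 restrains. Low energy acts through LKB1 and AMPK, and low oxygen acts in part through DDIT4 (REDD1), which relieves the TSC complex of its inhibition. FOXO factors are transcription factors that AKT keeps out of the nucleus. The 49 members were split by their textbook role into 23 activators, 19 inhibitors and 7 others, which are outputs of mTORC1 and the regulatory PI3K subunit PIK3R1.

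HIF1 binds the hypoxia response element, whose core is RCGTG, in which R stands for A or G. The 6 sequences below come from members whose window held a region called in 3 or 4 hypoxia lists, and are taken from the strongest peak of that region. They are reference sequence of GRCh37, plus strand, and capitals mark each RCGTG or its reverse complement. Where a peak overlapped an annotated UTR, only 30 bases around the core nearest to the peak centre are shown.
DDIT4 (A549 peak, chr10:74033497-74033637): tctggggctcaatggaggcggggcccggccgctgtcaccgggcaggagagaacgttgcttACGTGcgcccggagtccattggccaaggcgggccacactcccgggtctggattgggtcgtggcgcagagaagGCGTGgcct
FNIP1 (A549 peak, chr5:130971256-130971396): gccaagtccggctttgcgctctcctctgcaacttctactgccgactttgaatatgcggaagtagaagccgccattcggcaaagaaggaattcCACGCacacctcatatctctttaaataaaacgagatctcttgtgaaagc
LAMTOR3 (H460 peak, chr4:100815667-100815813): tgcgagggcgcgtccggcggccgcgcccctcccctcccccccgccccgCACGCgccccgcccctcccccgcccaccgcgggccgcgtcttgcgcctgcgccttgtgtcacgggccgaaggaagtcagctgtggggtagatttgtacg
LAMTOR5 (within the H460 peak, chr1:110950272-110950301): ccagcggcacggCACGTccttctccaccac
NPRL2 (within the H460 peak, chr3:50374815-50374844): GCGTGCGTGtacGCGTGtcagtgtgcgcgt
FOXO3 (within the A549 peak, chr6:108882137-108882166): gttcgctggccgCACGTcttcaggtcctcc
The sequences at DDIT4, LAMTOR5 and FOXO3 hold the ACGTG form of the core, read on one strand or the other. Those at FNIP1, LAMTOR3 and NPRL2 show the GCGTG form.

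The signal used below, the normalized tag count, gives the tags under a peak per 10 M tags sequenced for that merged library (1 M is 1000000). The merged libraries ranged from 41.2 M to 81.5 M tags, and the lists held 287 to 2092 peaks in normoxia and 3877 to 9171 in hypoxia. A peak had to exceed its input by a fold of 6 (RKO), 7 (HCT116), 13 (A549) or 14 (H460), so the fold asked differed by line. By the study's methods, these folds were adjusted to control for the immunoprecipitation efficiency of each line. Immunoprecipitation efficiency and peak width also differ between libraries, so for sites shared by lines the percentile of the peak within its own list is given as well. The study's methods describe the merged libraries as independent biological replicates. Ranges in parentheses after a signal are exact Poisson 95% intervals from the unscaled tags, and Wilson 95% intervals follow shares. Both cover counting error only. The Wilson intervals also treat genes or peaks as independent draws, although the members are a fixed list, so their overlap is not a test. A member without a peak was not called at the stringency and depth of that list, which does not show that HIF1A was absent there.

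In hypoxia, 37 of the 49 members had a peak in at least 1 line (75.5%, Wilson 95% interval 61.9 to 85.4), against 51.8% of all protein-coding genes. Members with a peak in all 4 lines numbered 6 (12.2%), against 3.26% of all protein-coding genes. These were DDIT4, the Ragulator subunit LAMTOR5, the folliculin partners FNIP1 and FNIP2, the GATOR1 subunit NPRL2 and the AMPK-activating kinase STK11 (LKB1). A peak in 3 lines was found for RPTOR, AKT1S1, LAMTOR3, FOXO3 and EIF4E. A further 12 members had peaks in 2 lines, 14 in 1 line and 12 in none. The 12 without a hypoxia peak were AKT1, PIK3CB, PIK3R1, TSC1, RRAGC, LAMTOR1, SESN2, SESN3, DDIT4L, RPS6KB1, EIF4EBP2 and FOXO4.

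By line, HCT116 hypoxia had peaks at 21 members (42.9%), where the share of all protein-coding genes was 19.9%. RKO hypoxia had peaks at 22 members (44.9% against 28.3%). The lung lines had fewer members bound, 18 for A549 (36.7% against 21.5%) and 16 for H460 (32.7% against 18.4%). Members were longer than the average gene, with a median length of 49.9 kb against 27.2 kb, and a longer window can hold more peaks. A window of equal size at every gene, 2500 bp to either side of the gene start, left 18 members with a hypoxia peak in at least 1 line (36.7%), against 22.1% of all protein-coding genes. That window held a peak at 11 members for HCT116 (22.4% against 9.15%) and 6 for RKO (12.2% against 8.72%). For the lung lines it held a peak at 11 members (A549, 22.4% against 7.02%) and 9 members (H460, 18.4% against 9.16%). DDIT4, FNIP2 and LAMTOR5 were bound near their start in all 4 lines, which is 6.12% of members against 1.13% of all protein-coding genes. The member share was thus above the genome-wide share in each line in both windows, by the least in RKO near gene starts, where the Wilson interval of the members (5.73 to 24.2) spanned it. The fold of 14 used for H460 was also asked of all lists, which sets aside the adjustment of the folds by line. RKO then kept 6 bound members (12.2% against 11.6% of all protein-coding genes). LAMTOR5 alone had a peak in all 4 lines (2.04% of members against 1.03%). When at least 1 input tag was asked for, LAMTOR5 and FNIP2 were lost and DDIT4, FNIP1, NPRL2 and STK11 had a peak in all 4 lines. No test was made of these shares, since the members were chosen with results of these data known.

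**Figure D1:**
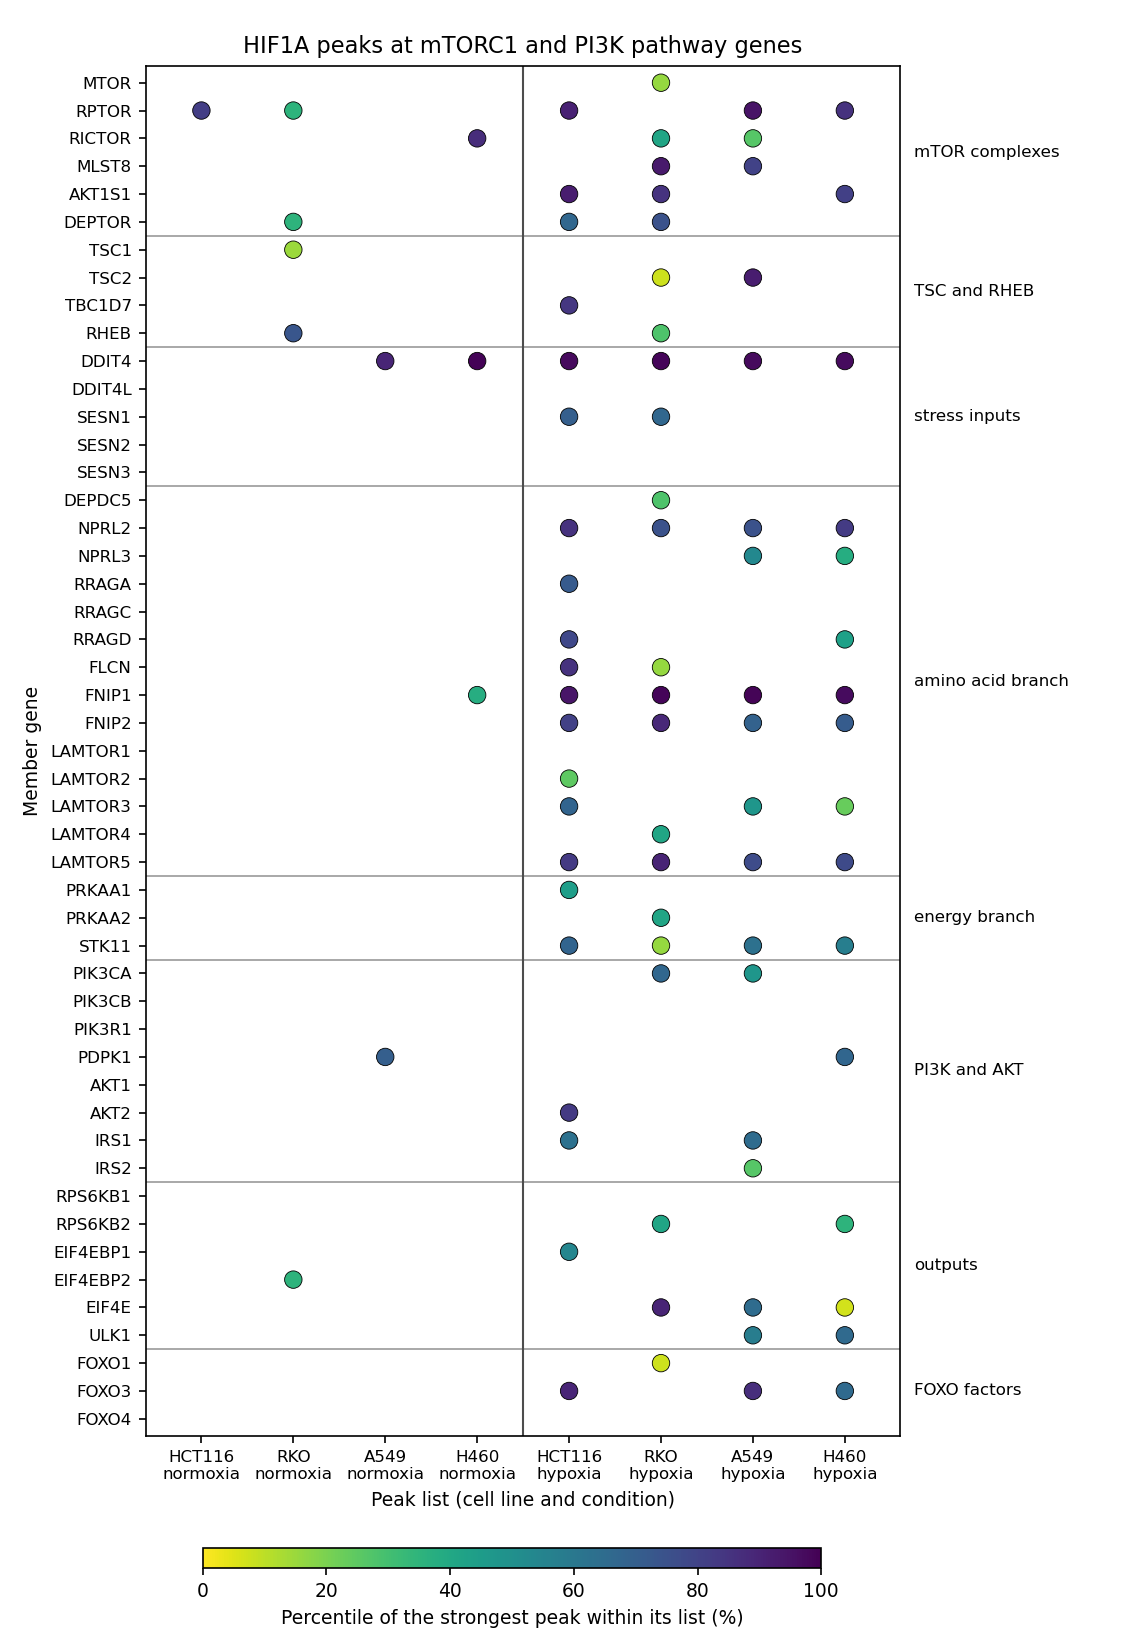
Each dot marks a member gene (rows, grouped by role) with a HIF1A peak in a list (columns, normoxia left and hypoxia right), coloured by the percentile of its strongest peak among all peaks of that list. DDIT4, FNIP1, FNIP2, LAMTOR5, NPRL2 and STK11 carry a dot in all 4 hypoxia lists, and 12 genes carry none there.

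Activators and inhibitors of the pathway were both bound. At least 1 line had a hypoxia peak at 19 of 23 activators (82.6%) and at 14 of 19 inhibitors (73.7%), each against 51.8% genome-wide, and at 4 of the 7 others. In HCT116 the counts were 11 activators (47.8%) and 9 inhibitors (47.4%). RKO had 10 activators (43.5%) and 10 inhibitors (52.6%), A549 had 10 (43.5%) and 6 (31.6%), and H460 had 7 (30.4%) and 6 (31.6%). The higher share lay with the activators in HCT116 and A549 and with the inhibitors in RKO and H460, and the Wilson intervals of the classes overlapped in every line. All 4 lines had a peak at 3 activators (FNIP1, FNIP2, LAMTOR5) and 3 inhibitors (DDIT4, NPRL2, STK11). Near the gene start, 8 activators (34.8%) and 7 inhibitors (36.8%) were bound in at least 1 line, against 22.1% genome-wide. Ranked within their own list, HCT116 peaks had a median percentile of 78.3 at activators and 80.6 at inhibitors. These medians were 41.3 and 60.9 for RKO, 65.2 and 63.2 for A549, and 71.2 and 57.6 for H460, so neither class had the stronger peaks in all lines. Without the transcription factors FOXO1, FOXO3 and FOXO4, 12 of 16 inhibitors (75.0%) had a hypoxia peak.

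**Figure D2:**
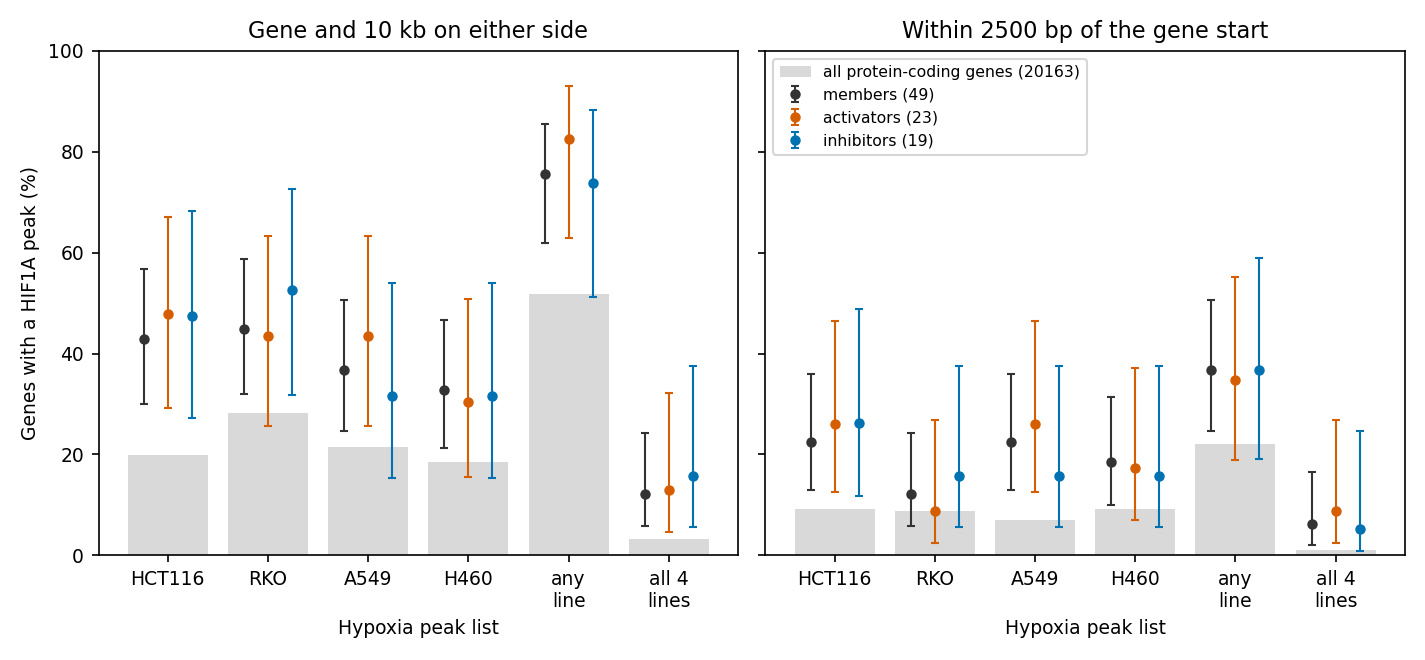
Percent of genes with a HIF1A hypoxia peak in each line, in any line and in all 4 lines, in the gene window (left) and within 2500 bp of the gene start (right). Grey bars are all protein-coding genes, points are members, activators and inhibitors, and whiskers are Wilson 95% intervals, which cover counting error only. Members lie above the grey bars throughout, and the intervals of activators and inhibitors overlap in every column.

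DDIT4, the stress-induced inhibitor that acts through the TSC complex, had a promoter peak centred 67 to 123 bp upstream of its start in every hypoxia list. The signal was 18.9 tags per 10 M (16.0 to 22.1) in HCT116 and 12.6 (10.0 to 15.6) in RKO. The lung lines had 33.3 (28.3 to 39.0) for A549 and 28.5 (24.0 to 33.6) for H460. The peak ranked at the 97.6th, 98.6th, 97.5th and 93.7th percentile for HCT116, RKO, A549 and H460. A549 normoxia had an overlapping peak of 13.1 tags per 10 M (9.84 to 17.1), the only peak at a member called at the same place in both conditions. The A549 site held 155 unscaled tags in hypoxia and 54 in normoxia, a 2.54-fold difference after scaling to library totals (log2 1.35, exact conditional binomial test, two-sided, adjusted p = 1.21e-09 over the 176 pairs of overlapping A549 peaks). Of those pairs, 73.3% were higher in hypoxia at an adjusted p under 0.05, so a rise at a shared A549 site was common. Since the replicates of each condition were merged, it tests the reads of the merged libraries, with no replicate error.

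DDIT4 also had a cluster of peaks past its 3′ end. In H460 hypoxia a peak 3027 bp from the gene start carried 42.1 tags per 10 M (36.5 to 48.2), more than the promoter peak of that line, at the 97.0th percentile. The overlapping A549 peak, at 3102 bp, carried 26.0 (21.6 to 31.1), less than the promoter. HCT116 had a separate peak of 7.73 at 2704 bp, and RKO had no peak downstream but one of 3.74 at 833 bp upstream, at the 79.9th percentile of its list. H460 normoxia had a peak of 10.3 tags per 10 M (7.78 to 13.4) at 3276 bp, in the 99.6th percentile of its list, with a gap of 117 bp to the H460 hypoxia peak. It held no RCGTG in its central 200 bp. Of all H460 normoxia peaks, 98.8% had no input tag, and the DDIT4 peak was among those that had some. Downstream binding at DDIT4 was thus seen in 3 of 4 lines in hypoxia and at shifted positions, while the promoter site was the same in all 4.

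Of the other 4 stress inputs, the sestrins and DDIT4L, 1 had a hypoxia peak in any line, against 51.8% of all protein-coding genes. SESN1, a stress-induced inhibitor of mTORC1, had a peak in a UTR 85.3 kb from its start in HCT116 and RKO. The peak carried 4.29 tags per 10 M (2.99 to 5.97) in HCT116 and 3.44 (2.18 to 5.16) in RKO, at the 70.0th and 67.0th percentile. SESN2, SESN3 and the DDIT4 paralogue DDIT4L had none in any list.

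Among the subunits of the mTOR complexes, RPTOR, which recruits substrates to mTORC1, had the strongest peaks in A549 and H460, all deep in the gene. An intronic site 312 kb into the gene carried 9.08 tags per 10 M (7.13 to 11.4) in HCT116 and 23.2 (19.02 to 28.0) in A549, at the 90.9th and 94.8th percentile. A second intronic site 347 kb into the gene carried 21.0 (17.1 to 25.7) in A549 and 15.2 (11.9 to 19.01) in H460, at the 93.9th and 80.7th percentile. Another, in H460 alone, carried 18.4. RKO hypoxia had no peak at RPTOR, a gene of 422 kb, and no line had a peak near its start. AKT1S1 (PRAS40), which inhibits mTORC1, had a peak in a UTR near its start in HCT116, RKO and H460, with 5.03 (3.61 to 6.82), 4.04 (2.66 to 5.87) and 5.46 (3.60 to 7.94) tags per 10 M and percentiles of 76.9, 85.3 and 38.2. A stronger AKT1S1 peak further into the gene, 1803 to 1807 bp from the start, carried 9.57 (7.56 to 11.9) in HCT116, the strongest of the mTOR complex genes there, and 15.4 (12.1 to 19.2) in H460, at the 91.9th and 81.1st percentile. Both AKT1S1 sites also lie in the window of TBC1D17, whose start is closer to them than that of AKT1S1. MLST8, shared by both mTOR complexes, had a peak of 8.59 in a UTR in A549, and 5.83 in RKO near the start of the neighbouring gene PGP. MTOR itself had only an RKO peak of 2.84, at the 15.7th percentile and upstream of the gene. RICTOR, the defining subunit of mTORC2, had peaks of at most 3.44 in RKO and A549.

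In the TSC and RHEB branch, TSC1 had no hypoxia peak. TSC2, its GTPase-activating partner, had an A549 peak of 17.6 tags per 10 M at the 92.1st percentile, 8264 bp upstream of its start and in the windows of NTHL1 and NHERF2 as well. The RKO peak at TSC2 carried 2.69. TBC1D7, the third subunit, had a peak of 6.62 in a UTR 49 bp from its start in HCT116. RHEB had 2 peaks of 2.99 in RKO, both upstream. H460 hypoxia had no peak at any of these 4 genes, against 18.4% of all protein-coding genes with one.

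In the amino acid branch 12 of 14 members were bound in at least 1 line, against 51.8% of all protein-coding genes. At LAMTOR5 all 4 lines shared a site in a coding exon, 262 to 307 bp from the start. It carried 6.38 tags per 10 M (4.76 to 8.36) in HCT116 and 4.78 (3.27 to 6.75) in RKO. The A549 value was 7.52 (5.24 to 10.5) and the H460 value was 13.5 (10.5 to 17.2). Ranked within its own list the order was another, with percentiles of 83.2, 90.2, 77.2 and 77.4 for HCT116, RKO, A549 and H460. No other coding gene window held that site. The LAMTOR3 site, 46 to 155 bp upstream of the start, carried 4.17 (2.89 to 5.83) in HCT116, 3.87 (2.29 to 6.11) in A549 and 4.45 (2.79 to 6.74) in H460, at the 68.3rd, 47.4th and 23.3rd percentile, and was not called in RKO. LAMTOR2 and LAMTOR4 had peaks of 2.70 in HCT116 and 3.14 in RKO, and LAMTOR1 had none.

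FNIP1 and FNIP2 partner folliculin (FLCN), which acts on the Rag GTPases. The peak in the FNIP1 window was the strongest of all member sites in A549. It carried 11.7 tags per 10 M (9.43 to 14.2) in HCT116 and 13 (10.4 to 16.0) in RKO, which overlap. The lung lines had 47.7 (A549, 41.6 to 54.4) and 42.1 (H460, 36.5 to 48.2), which overlap each other. The percentiles for HCT116, RKO, A549 and H460 were 94.5, 98.7, 99.0 and 97.0. It lies beyond the 3′ end of FNIP1, 161 kb from the FNIP1 start and 394 to 413 bp from the start of RAPGEF6, so its assignment to FNIP1 rests on the window alone. At FNIP2 the binding was close to the start in all 4 lines but at a pair of positions. HCT116 and H460 had a peak 133 to 145 bp upstream with 5.76 (4.24 to 7.67) and 10.9 (8.20 to 14.3) tags per 10 M, and RKO and A549 had a peak 703 to 728 bp into the gene with 4.48 (3.03 to 6.40) and 5.58 (3.65 to 8.18). The percentiles for HCT116, RKO, A549 and H460 were 80.6, 88.8, 69.1 and 71.2. FLCN had 6.99 in HCT116, 102 bp from the start of PLD6, and 2.84 in RKO.

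The Rag GTPase RRAGD had a peak 9 to 41 bp upstream of its start in HCT116 (5.27, 3.82 to 7.10) and H460 (5.86, 3.93 to 8.42), at the 78.3rd and 43.2nd percentile. RRAGA had one of 4.42 in HCT116, 202 bp upstream of its start and 133 bp from that of SAXO1, and RRAGC had none. Of the GATOR1 subunits, which inhibit the Rag branch, NPRL2 had its main site past the 3′ end, 108 to 121 bp from the start of RASSF1-AS1 and in the windows of RASSF1, TUSC2 and ZMYND10, with 6.99 (5.30 to 9.06) in HCT116, 6.87 (4.70 to 9.70) in A549 and 16.0 (12.7 to 19.9) in H460, at the 85.7th, 74.6th and 82.5th percentile. The RKO peak of NPRL2 was elsewhere, in a coding exon, with 3.59. NPRL3 had peaks of at most 5.46 in A549 and H460, and DEPDC5 a peak of 2.99 in RKO, 2 bp from the start of PRR14L.

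STK11 was called in all 4 lines, but mostly at different places. An intronic site 28.2 kb from its start carried 4.17 (2.89 to 5.83) in HCT116 and 6.47 (4.43 to 9.13) in H460, at the 68.3rd and 49.8th percentile. A549 had peaks of 4.72 and 3.22, the latter 30 bp from the start, H460 had a further peak of 7.48 and RKO had 2.84 past the 3′ end. The AMPK catalytic subunits PRKAA1 and PRKAA2 each had a peak in 1 line, of 2.94 in HCT116 and 3.14 in RKO. The PRKAA1 peak lay 55 bp from the start of TTC33.

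Of the PI3K and AKT genes, 5 of 8 were bound in hypoxia in any line, against 51.8% of all protein-coding genes, and 5 of their 8 peaks lay above the median of their list. IRS1, an adaptor between insulin receptors and PI3K, had a peak of 3.68 in HCT116, 142 bp upstream of its start, and of 4.94 in A549. IRS2 had one of 3.44 in A549. PIK3CA, a catalytic subunit, had peaks of at most 3.87 in A549 and 3.44 in RKO. PDPK1, which phosphorylates AKT, had a peak of 9.91 in H460 past its 3′ end, 85 bp from the start of ENSG00000291228. A near-identical copy of PDPK1 lies close by. The study's methods filtered alignments on mapping quality, and how reads divided between the copies was not tested. AKT2 had a peak of 6.38 in HCT116, 1982 bp from the start of CCNP. AKT1, PIK3CB and PIK3R1 had no hypoxia peak.

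**Figure D3:**
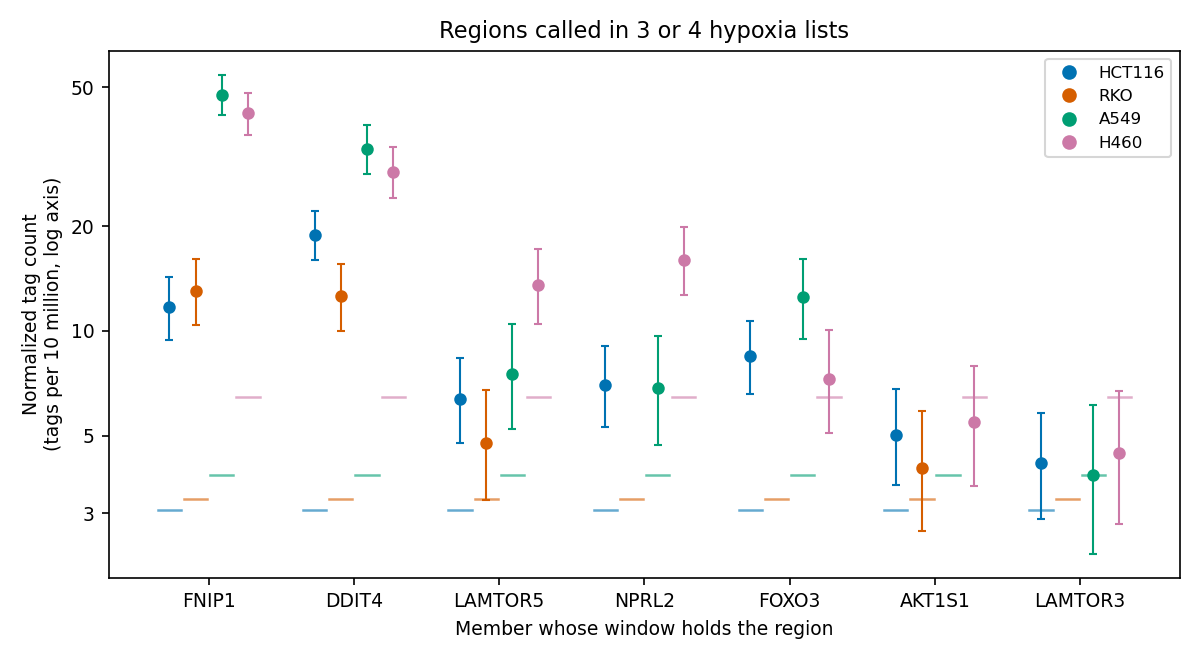
Normalized tag count (log axis) of the regions called in 3 or 4 hypoxia lists, by line, with exact Poisson 95% intervals that cover counting error only. The short horizontal lines are the medians of all peaks of the list. The FNIP1 and DDIT4 regions lie above the list medians in all 4 lines, and the LAMTOR3 and AKT1S1 regions lie below the median in H460.

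FOXO3 was the FOXO factor bound in the most lines, in HCT116, A549 and H460 but not in RKO. The site shared by these 3 lines lay in a UTR 1098 to 1114 bp from the start, with 8.46 (6.59 to 10.7), 12.5 (9.46 to 16.1) and 7.28 (5.10 to 10.1) tags per 10 M and percentiles of 89.7, 87.1 and 56.4. A site 159 to 225 bp upstream of the start carried 4.91 (3.51 to 6.68) in HCT116 and 9.5 (6.98 to 12.6) in H460, at the 76.1st and 66.0th percentile. Another, 1218 to 1260 bp upstream, carried 3.44 (1.96 to 5.58) in A549 and 8.09 (5.78 to 11.01) in H460, at the 26.5th and 61.1st percentile. H460 thus had 4 peaks within 2500 bp of the FOXO3 start, and A549 and HCT116 had 2 each. FOXO1 had a single RKO peak of 2.69, at the 7.66th percentile, and FOXO4 had none.

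Among the outputs, EIF4E, the cap-binding factor of translation, had a peak near its start in 3 lines at 3 positions, with 4.78 in RKO, 4.94 in A549 and 3.44 in H460. ULK1, an autophagy kinase that mTORC1 inhibits, had peaks of 9.5 in H460 and at most 4.29 in A549. The S6 kinase gene RPS6KB2 had 5.26 in H460 and 3.14 in RKO. RPS6KB1 and EIF4EBP2 had none in hypoxia.

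**Figure D4:**
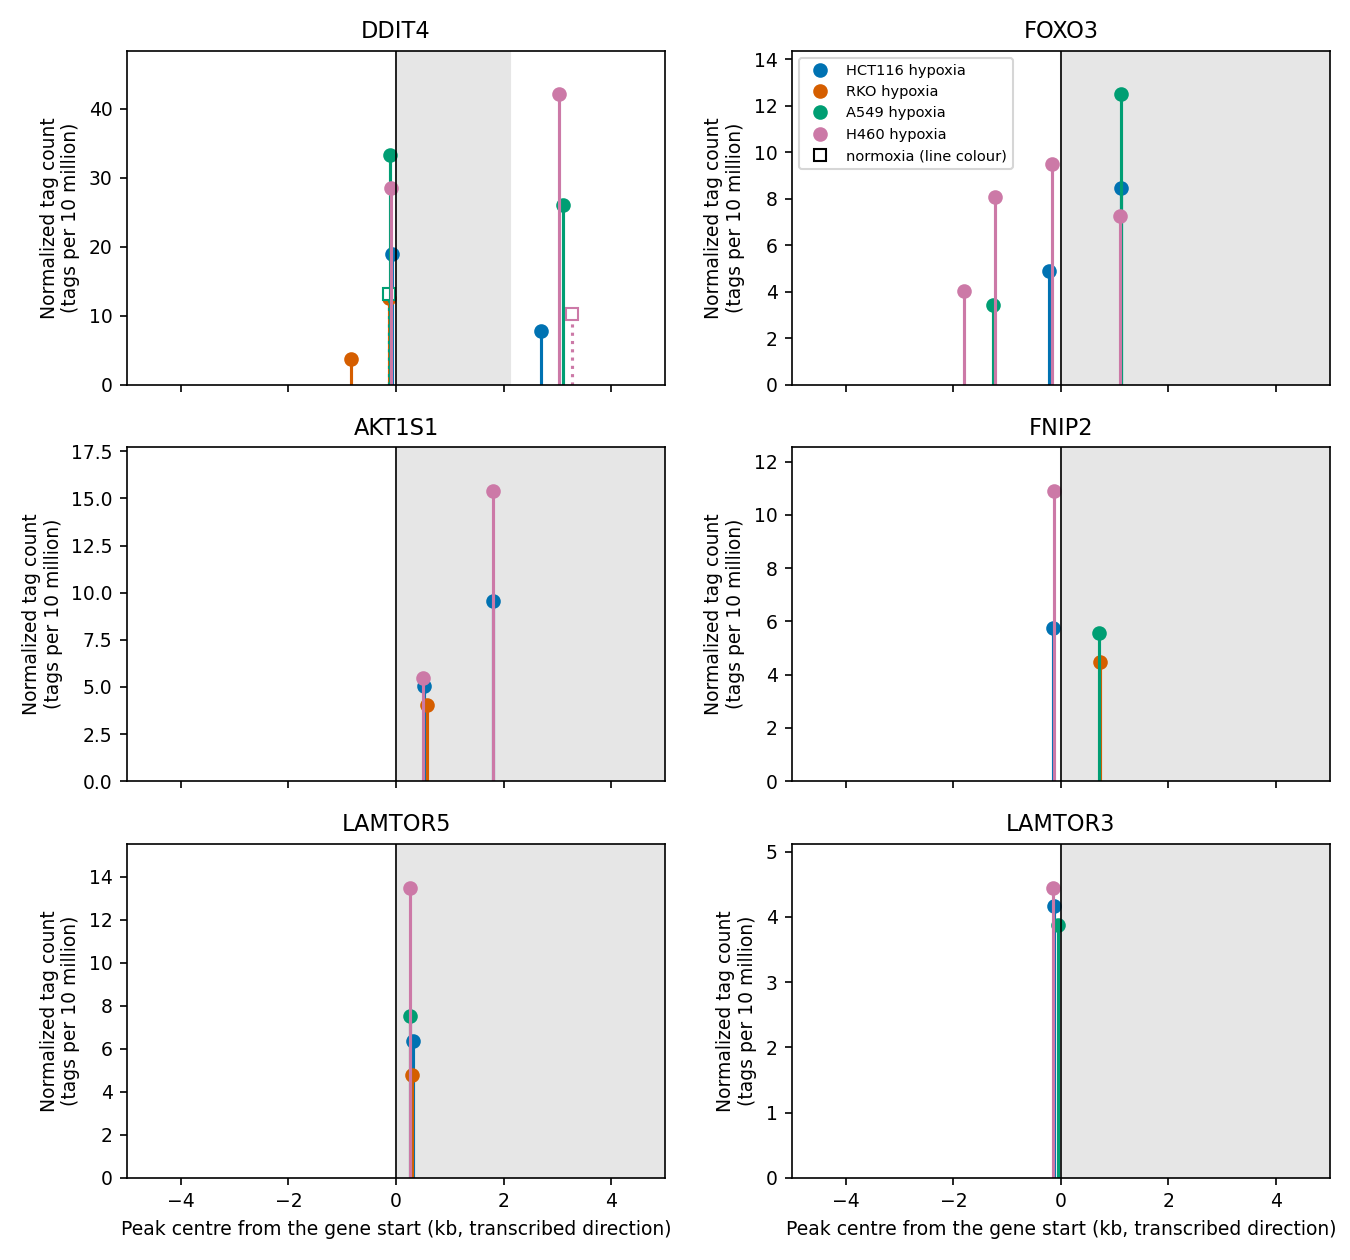
Positions of HIF1A peaks within 5 kb of the start of 6 members, with the height giving the normalized tag count, filled circles for hypoxia, open squares for normoxia and grey for the gene. At DDIT4 the 4 hypoxia lists share the promoter site, while FOXO3 shows sites on both sides of its start and FNIP2 a pair of positions.

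In normoxia few members were bound. A peak in at least 1 line was found at 9 members (18.4%, Wilson 95% interval 9.98 to 31.4), against 13.1% of all protein-coding genes, so the share was near the genome-wide share. HCT116 normoxia had a peak at 1 member (2.04% against 1.29%) and RKO normoxia at 5 (10.2% against 6.93%). Of the lung lines, A549 had 2 (4.08% against 2.76%) and H460 had 3 (6.12% against 3.81%). The 13 normoxia peaks at members carried 3.0 to 5.58 tags per 10 M except at DDIT4. Within their lists they ranked from the 15.1st percentile to the 99.6th, with RICTOR in H460 at 87.4, RPTOR in HCT116 at 81.7, RHEB in RKO at 73.2 and PDPK1 in A549 at 70.1. Those at RPTOR in HCT116 (4.05) and RKO (3.55) were intronic, and the HCT116 peak lay 121 kb from the nearest hypoxia peak at RPTOR in that line. A549 had a peak of 5.58 upstream of PDPK1, 745 bp from the start of CEMP1. H460 had peaks of 3.57 in a coding exon of RICTOR and 3.0 past the 3′ end of FNIP1, the latter 3.59 kb from the hypoxia site. RKO had peaks at RHEB (3.99), EIF4EBP2 (3.55) and TSC1 (3.33). Of 11 pairs of a member and a line with a normoxia peak, 6 also had a hypoxia peak at that member in that line, and the DDIT4 promoter in A549 was the only place where the peaks overlapped.

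The inhibitor DEPTOR had 3 normoxia peaks of 3.33 to 3.55 in RKO, and in hypoxia peaks of at most 3.59 in RKO and 4.05 in HCT116, the latter 964 bp from its start. DEPTOR lies on chromosome 8, which held 25.4% of all RKO normoxia peaks and 12.7% of all RKO hypoxia peaks, against 1.33% to 13.2% in the other lists. The part of this in the DEPTOR calls was not tested. EIF4EBP1, on the same chromosome and a repressor of translation that mTORC1 inactivates, had an intronic peak of 3.19 in HCT116.

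The 4 hypoxia lists had 108 peaks at members (26 each for HCT116 and RKO, 31 for A549, 25 for H460), and no peak lay in the windows of 2 members at once. For HCT116 the median normalized tag count of these peaks was 5.15, against 3.07 for the whole list. The corresponding medians were 3.21 against 3.29 for RKO, 4.72 against 3.87 for A549, and 8.09 against 6.47 for H460. The RKO peaks at members were thus close to their list in the median, while those of the other lines lay above theirs. Of the 108 peaks, 69 ranked above the middle of their list, with tied peaks given their mean rank, and 18 lay in the strongest 10% of it. By position, 51 lay inside the member gene, 35 upstream and 22 downstream, and 45 lay within 2500 bp of the start of the member. The start nearest to the peak was that of the member for 46 of the 108, and 45 lay in the window of another protein-coding gene as well. Joined over lines wherever they overlapped, the peaks formed 80 regions, of which 62 (77.5%) belonged to a single line and 11 (13.8%) to a pair of lines. Another 4 regions (5.0%) were shared by 3 lines and 3 (3.75%) by all 4. Over the whole genome 90.3%, 6.28%, 2.28% and 1.19% of regions belonged to 1, 2, 3 and 4 lines.

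RCGTG was searched on both strands in the central 200 bp of each peak. It was present at 72 of the 108 hypoxia peaks of members (66.7%, Wilson 95% interval 57.3 to 74.8), against 50.0% of all hypoxia peaks. For HCT116, RKO, A549 and H460 the member shares were 84.6%, 34.6%, 61.3% and 88.0%, against 65.2%, 30.5%, 52.4% and 76.9% of all peaks. RCGAG, scored as a control, stood at 50.0%, 34.6%, 45.2% and 52.0% of member peaks, against 43.4%, 19.7%, 27.1% and 41.2%. A higher share at member peaks was thus not particular to RCGTG. Member peaks also lay within 2500 bp of a gene start more often (69.2%, 57.7%, 61.3% and 68.0%, against 46.4%, 20.3%, 29.0% and 49.3%). The part of this in the motif shares was not tested. For scale, 42.6% of windows of equal length at the starts of all protein-coding genes held the core, and 23 of 49 (46.9%) at those of the members. The ACGTG form, which RCGTG contains, was present, in the same order of lines, at 50.0%, 26.9%, 29.0% and 56.0% of member peaks, against 40.9%, 19.8%, 38.3% and 55.6% of all peaks. In A549, with 9 of 31, the member share was below that of the list, and in the other lines it was above it. Member peaks whose region belonged to a single line held RCGTG at 27 of 62 (43.5%), those shared by a pair of lines at 21 of 22 (95.5%), and those shared by 3 or by 4 lines at 12 of 12 each. Peaks of a shared region cover nearly the same sequence, so these are 4 regions counted 3 times and 3 regions counted 4 times, and their Wilson intervals are too narrow. For all hypoxia peaks the shares were 39.0%, 87.3%, 93.8% and 97.7% for 1, 2, 3 and 4 lines, a like order. Member peaks that ranked above the middle of their list held RCGTG at 82.6% and the others at 38.5%.

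**Figure D5:**
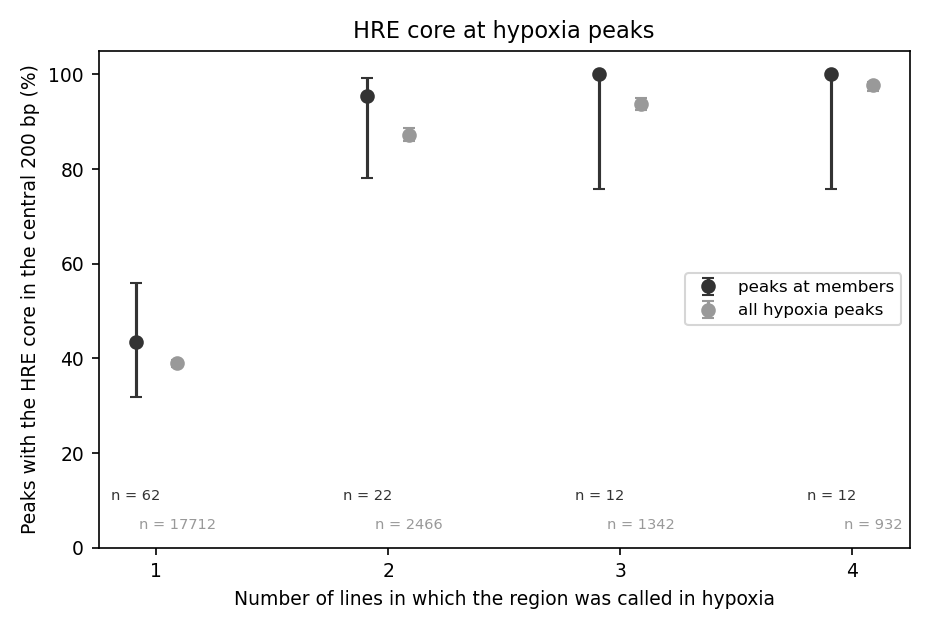
Percent of hypoxia peaks with the core of the hypoxia response element in their central 200 bp, by the number of lines in which the region was called, for peaks at members (dark) and for all hypoxia peaks (grey), with Wilson 95% intervals (too narrow for shared regions, whose sequence is counted once per line) and the number of peaks. Regions of 1 line stand at 43.5% for members and 39.0% for all peaks, and regions of 2 lines at 95.5% and 87.3%.

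A list of 67 other genes of these pathways, not among the 49, was read by the same rule. All 67 were found in the annotation, SAMTOR under the name BMT2. HCT116 and A549 hypoxia had a peak at 22 of them each (32.8%), RKO at 25 (37.3%) and H460 at 21 (31.3%). At least 1 line had a peak at 44 (65.7%), all 4 lines at 3 (4.48%), and in normoxia at least 1 line at 11 (16.4%). In this gene window these shares lie between those of the 49 members and those of all protein-coding genes. Within 2500 bp of the gene start, the share in any hypoxia line was 34.3%, against 36.7% of members and 22.1% of all protein-coding genes. There the RKO share (14.9%) was above that of the members (12.2%). It was below that of the members in HCT116 (11.9% against 22.4%), A549 (16.4% against 22.4%) and H460 (13.4% against 18.4%). Of the genes bound in all lines, IGF1R, a receptor that feeds PI3K, had a peak 153 to 155 bp from its start with 4.42 tags per 10 M in HCT116 and 5.68 in RKO, and peaks inside the gene of 9.23 in A549 and 11.3 in H460. PRKAG2, a regulatory AMPK subunit, shared a site between HCT116 (5.64) and H460 (22.4), while its strongest peaks in the other lines were 4.72 in A549 and 3.14 in RKO.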

How the data were processed

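HIF1A ChIP-seq was compared over 16 ChIP and 4 input libraries. According to the submitters' processing notes and the file headers, the authors aligned reads with Bowtie2 2.2.9 to GRCh37, processed alignments with SAMtools 1.3.1 and Picard 1.129, merged 2 replicates per group and called peaks with HOMER 4.3 against the input of the line, with a local fold over 3. Groups were taken from titles. The descriptions of the RKO and A549 inputs name each other's line, while the file headers name the matching line.

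The deposited signal is the normalized tag count, tags per 10 M. The deposited fold ratios over input and over the local region were used only as filters. Unscaled tag counts were computed here from the signal and the header totals. The authors' lists hold 1 value per peak, so depth gives counting error only.

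Members and lists were chosen with earlier results of these data known. Gene windows came from GENCODE release 44, mapped to GRCh37. Every member was accounted for. Values were given by rule for members with a region in 2 or more lines or a normoxia peak, and for the 10 members bound in 1 line whose strongest peak ranked highest in its list. Values of the remaining members were added after they were seen. Where a line had overlapping normoxia and hypoxia peaks, their tags were compared by an exact conditional binomial test with Benjamini-Hochberg adjustment, checked on simulated data. Alternatives changed the window, the thresholds, the input tags, the list length, the gene assignment, the lines, the overlap and the motif window. Python 3.11.15, pandas 2.3.3, scipy 1.17.1 and pysam 0.24.0 were used. Some neighbouring or related genes and a sequence are not reported here.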

Additional observations from a re-analysis of the deposited data

Results flagged for a closer look

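For 29 measures of the member peaks, the 4 lines were compared with each other, and 2 stood apart by Dixon's gap test. Chance sets apart about 1 in 20 such groups. A549 hypoxia had 31 peaks at members, where the other lines had 25 or 26. A549 normoxia had a median normalized tag count of 9.34 tags per 10 M at members, against 3.55 to 4.05 in the other lines, and this median rests on 2 peaks, at DDIT4 (13.1) and PDPK1 (5.58).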

How the results depend on the processing

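No paired analysis was possible because the lists were called on libraries already merged over replicates, and no replicate could be left out. Of 95 values under an alternative, 63 stayed within 1.5 times the reported count or kept the same call, and 32 moved. A genome-wide share stood beside 93 of these values, several from each setting. It was that of all protein-coding genes, or of all hypoxia peaks for the motif. The share of members, of activators or inhibitors, or of member peaks was the higher in 93 of the 93. These values re-read the same peaks and are not independent, and the classes entered them only for a peak in any line. Taken by line, activators near gene starts in RKO hypoxia stood at 8.7% against 8.72% of all protein-coding genes, and inhibitors at 15.8%. Shares in parentheses below are those of the members (or class) against those of all protein-coding genes. With flanks of 5 kb, 3 members were bound in all 4 lines (DDIT4, FNIP2, LAMTOR5, 6.12% against 2.62%). With flanks of 50 kb, A549 had 28 members (57.1% against 37.6%) and normoxia 15 in any line (30.6% against 24.0%). Within 2500 bp of the gene start, the hypoxia counts were HCT116 11, RKO 6, A549 11, H460 9, any line 18 and all lines 3, with 8 activators and 7 inhibitors, at the shares given above. Normoxia had 2 members there (4.08% against 1.91%). With 14 as the lowest fold over input for all lists, HCT116 had 9 members (18.4% against 9.18%) and RKO 6 (12.2% against 11.6%). All lines had 1 (LAMTOR5, 2.04% against 1.03%) and normoxia 5 (10.2% against 9.18%), with 9 inhibitors bound in any line (47.4% against 39.0%). With a local fold of at least 6, RKO had 6 (12.2% against 11.2%), any line 24, normoxia 4, with 12 activators and 9 inhibitors. With the strongest 3877 peaks of each hypoxia list, RKO had 11 (22.4% against 16.8%), and normoxia was not recomputed there. With peaks in the window of no other coding gene, HCT116 had 12, RKO 11, A549 11, any line 22, all lines 3 (DDIT4, FNIP2, LAMTOR5) and normoxia 5, with 10 activators and 9 inhibitors. Without line RKO, normoxia had 5 (10.2% against 7.39%). With at least 1 input tag, all lines had 4 (DDIT4, FNIP1, NPRL2, STK11, 8.16% against 2.12%). The LAMTOR5 peaks of HCT116 and RKO had no input tag, so their fold over input rests on 0.5 tags. Which members were bound in all lines thus depended on these settings. The DDIT4 call in A549 kept its direction and its side of the threshold under the alternatives tried (adjusted p from 4.46e-10 to 1.21e-09). The weakest member peaks held 14 tags, and absence of a call is not absence of binding.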
